A study of Mus musculus with 28 samples.

Results

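Transcript levels of 9 genes of epithelial cell junctions and simple epithelial keratins were followed in mouse XEN-eYFP cells under Nodal, Cripto and the inhibitor SB431542. The genes were Cldn6, Cldn7 and Tjp1 of tight junctions, Cdh1 and Ctnnd1 of adherens junctions, the adhesion molecule gene Epcam, and the keratin genes Krt8, Krt18 and Krt19. All probes that the array's annotation gave to 1 of these symbols were taken, which came to 14 of 45281 probes. Of these, 9 probes, 1 per gene, were detected on enough arrays to be tested among 18471 probes, and the other 5 were detected on no array.

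XEN-eYFP is a line of extraembryonic endoderm stem cells, which derive from the primitive endoderm, and the study asked how Nodal and EGF-CFC signalling act on them. All cultures were harvested after 96 h, and 200 ng of total RNA per sample was hybridised to Illumina MouseWG-6 v2 arrays. The groups were 50 ng/ml Nodal (5 arrays), 100 ng/ml Cripto (5 arrays), 50 ng/ml Nodal with SB431542 (3 arrays), 100 ng/ml Cripto with SB431542 (5 arrays), SB431542 alone (5 arrays) and medium alone, named Media (5 arrays). Nodal is a secreted TGF-beta family ligand, Cripto, of the EGF-CFC family, is known as its co-receptor, and SB431542 blocks the receptor kinase Alk4 and its close relatives. The labels give no concentration of SB431542 and do not say whether the arrays of a group came from separate cultures, so p-values cover only the spread between these arrays, which may be technical. All samples are of 1 cell line.

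Claudins are membrane proteins that seal the space between epithelial cells, and the scaffold protein ZO-1 (Tjp1) ties them to actin. E-cadherin (Cdh1) joins neighbouring cells at adherens junctions, where p120-catenin (Ctnnd1) binds its cytoplasmic tail and keeps it at the membrane. Keratins 8, 18 and 19 pair into the intermediate filaments of simple epithelia, the type II Krt8 with the type I Krt18 or Krt19, and are among the first keratins made in the mouse embryo, visceral endoderm included.

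The promoters of Cldn6, Epcam, Krt8 and Krt18 are shown because these genes were called higher under both proteins, Epcam on only some of the arrays, as given below. The second Cldn7 entry is shown too, although Cldn7 did not pass the test in any comparison of the main fit. Every entry printed holds the letters marked below, and the entries of these genes without them are not printed. Each is the 250 bases before the annotated start in RefSeq (GRCm38.p6), read 5′ to 3′ on the gene's strand. Capitals mark CAGGTG or its reverse complement CACCTG, the E-box of the kind bound by Snail and Zeb proteins, repressors known from work on the Cdh1 promoter. The positions are chr17:23679115-23679364 (plus strand) for Cldn6, chr17:87635729-87635978 (plus strand) for Epcam, chr15:102004343-102004592 (minus strand) for Krt8, chr15:102027966-102028215 (plus strand) for Krt18 and chr11:69965171-69965420 (plus strand) for the second of 2 Cldn7 entries.
Cldn6 promoter: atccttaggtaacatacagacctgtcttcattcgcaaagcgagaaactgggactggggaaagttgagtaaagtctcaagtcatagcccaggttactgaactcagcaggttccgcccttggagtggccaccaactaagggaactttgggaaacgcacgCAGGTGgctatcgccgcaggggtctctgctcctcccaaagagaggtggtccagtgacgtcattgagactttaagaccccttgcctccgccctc
Epcam promoter: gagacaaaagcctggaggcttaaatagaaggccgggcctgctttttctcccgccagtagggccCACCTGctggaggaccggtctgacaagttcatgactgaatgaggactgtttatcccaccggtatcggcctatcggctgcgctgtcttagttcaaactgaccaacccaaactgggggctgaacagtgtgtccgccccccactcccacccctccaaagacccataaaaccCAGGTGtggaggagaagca
Krt8 promoter: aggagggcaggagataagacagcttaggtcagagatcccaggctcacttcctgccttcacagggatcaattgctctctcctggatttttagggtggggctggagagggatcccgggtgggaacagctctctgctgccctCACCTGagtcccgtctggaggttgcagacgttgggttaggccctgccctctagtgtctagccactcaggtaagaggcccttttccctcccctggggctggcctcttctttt
Krt18 promoter: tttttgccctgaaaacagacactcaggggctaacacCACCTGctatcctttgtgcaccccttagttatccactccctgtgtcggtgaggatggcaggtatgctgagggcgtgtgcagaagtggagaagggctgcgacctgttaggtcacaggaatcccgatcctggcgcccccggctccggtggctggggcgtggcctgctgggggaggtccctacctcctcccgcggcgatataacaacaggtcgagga
Cldn7 second promoter entry: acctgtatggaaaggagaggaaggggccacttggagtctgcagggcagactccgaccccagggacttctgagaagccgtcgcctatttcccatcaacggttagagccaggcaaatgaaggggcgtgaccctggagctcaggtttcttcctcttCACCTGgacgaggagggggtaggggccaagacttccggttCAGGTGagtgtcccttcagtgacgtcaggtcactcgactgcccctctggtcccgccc

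The E-box letters began 93 bases before the start in Cldn6, 187 and 19 bases before it in Epcam, 111 in Krt8, 214 in Krt18, and 97 and 57 in this Cldn7 entry. The Tjp1 promoter, the first Cldn7 entry and the 2 Ctnnd1 entries did not hold them. Counted by entry, 5 of 9 held the letters, and these 5 belong to 5 of the 7 genes with an entry. Among all 32851 promoter windows of this length 17.2% held the letters on either strand. The Grainyhead-type motif AACCGGTT, which reads the same on both strands, was in 0.116% of all windows and in none of these genes. A match describes the letters and is not a binding site, and Cdh1 and Krt19 are named only.

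The arrays had mean signals of 183.8 to 995 intensity units and 13191 to 16183 detected probes. Group ranges of mean signal were 340.6 to 905.9 for Nodal, 321.1 to 995 for Cripto, 439.8 to 629.1 for Nodal with SB431542, 639.3 to 875.2 for Cripto with SB431542, 195.9 to 658.2 for SB431542 and 183.8 to 545.9 for Media. The labels number 7 BeadChips, called 1 to 7 here, and the BeadChip was a term of the fit except in alternatives that say otherwise. Primitive endoderm markers were present, as the cell line's label says, since all 10 with a probe were detected on every array, with a summed normalised intensity of 111000 to 151000 under Nodal, 103000 to 118000 under Cripto and 136000 to 156000 in Media. Against Media, 5 of these 10 were called lower and 1 higher under Nodal, where 27% of all probes tested were called lower and 28.5% higher. Under Cripto 6 were called lower and 0 higher, where 29.9% of all probes were called lower and 32.4% higher. None of the 9 fibroblast markers was detected on any array. Of 7 epiblast markers 1 to 3 were detected on an array. Of 7 trophoblast markers with a probe at most 2 were, and their summed intensity was 111 to 134 under Nodal, 115 to 203 under Cripto and 693 to 863 in Media. Gata3 fell by 4.02 ± 0.15 (SE, log2) under Nodal and fell by 3.81 ± 0.15 under Cripto, against Media, and Cdx2 was detected on all 5 Cripto arrays and all 5 arrays of Cripto with SB431542 and on no other. The part of these markers and of brightness in the results was not tested beyond the brightness covariate.

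Among the 9 genes, the 6 genes Cldn6, Cdh1, Epcam, Krt8, Krt18 and Krt19, were higher under Nodal than in Media, and the same 6 were higher under Cripto than in Media and under Cripto with SB431542 than under SB431542 alone. None of the 9 was called lower in these 3 comparisons, although Ctnnd1 stood at -1.05 and Tjp1 at -0.34 under Cripto with SB431542 against SB431542 and were called lower there under 6 and 2 of 42 alternatives. Epcam was detected only in Nodal, Cripto and Cripto with SB431542. It therefore passed the detection filter only through groups where it was high, and its place in these counts depends on that filter. The changes ran from Cldn6, over 5 on the log2 scale, to Krt8, under 1. Calls of this kind were common on the array: 55.4% of all probes tested were called in Nodal against Media (28.5% higher and 27% lower), 62.3% in Cripto against Media (32.4% higher and 29.9% lower) and 63.9% in Cripto with SB431542 against SB431542 (32.7% higher and 31.2% lower). The median log2 change of the 9 genes was 1.56 under Nodal, with 0.03 over all probes, and 1.15 under Cripto, with 0.05 over all probes. The comparisons with Media share the Media arrays and are given side by side.

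**Figure D1:**
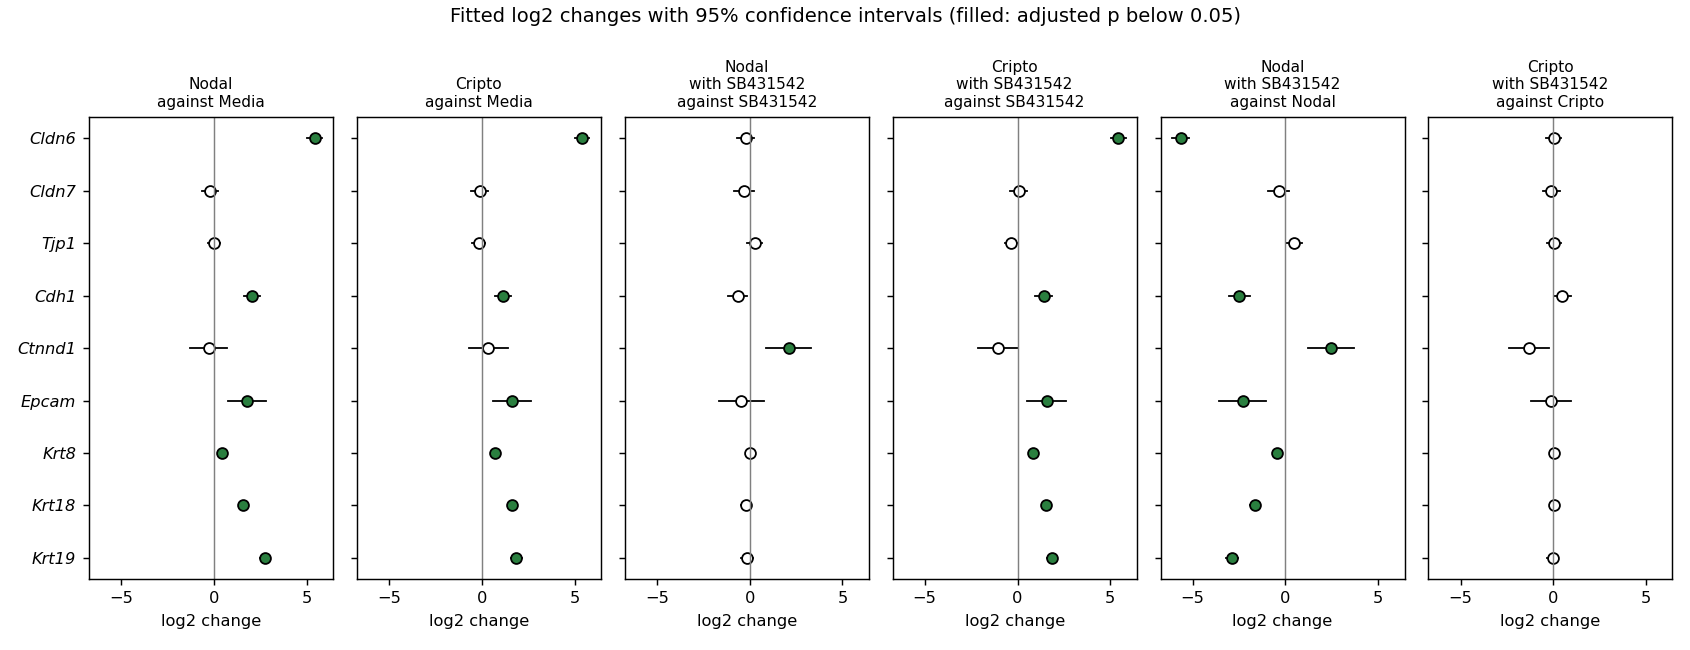
Fitted log2 change (x axis) of each of the 9 genes (rows) in 6 comparisons, with points for limma estimates, bars for 95% confidence intervals and filled points for an adjusted p below 0.05. Cldn6, Cdh1, Epcam, Krt8, Krt18 and Krt19 lie right of 0 in the panels of Nodal, Cripto and Cripto with SB431542 against their controls, and left of 0 where Nodal with SB431542 is set against Nodal.

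A probe was called detected on an array when its detection p-value was below 0.01, and levels are log2 intensities after background correction and quantile normalisation, comparable between arrays for 1 probe but not between probes. Called means an adjusted p below 0.05 by limma with Benjamini-Hochberg adjustment over all probes tested. Brightness moved with the groups, and with each array's mean signal as a covariate the same 6 of 9 genes were called under Nodal and under Cripto, with Krt19 at 2.70 and 1.84, Krt18 at 1.47 and 1.55 and Cldn6 at 5.21 and 5.16. The sizes for dim genes depended on the background correction. On the authors' deposited log2 values the changes under Nodal were 3.95 for Cldn6, 1.96 for Krt19, 0.72 for Cdh1 and 0.52 for Epcam, while Krt18 and Krt8 gave 1.54 and 0.40. With arrays centred on their medians and not quantile-normalised, the median log2 change of all probes was 0.42 under Nodal and 0.44 under Cripto. Under Nodal 8898 probes were then called higher and 2187 lower, against 5262 higher and 4980 lower with quantile normalisation. Under Cripto 9049 were called higher and 2780 lower, against 5991 higher and 5516 lower. What lies behind this shift was not tested. Median centring gave Krt8 0.91 under Nodal and 1.28 under Cripto, and Tjp1 was then called under Nodal at 0.52, against that median of 0.42.

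**Figure D2:**
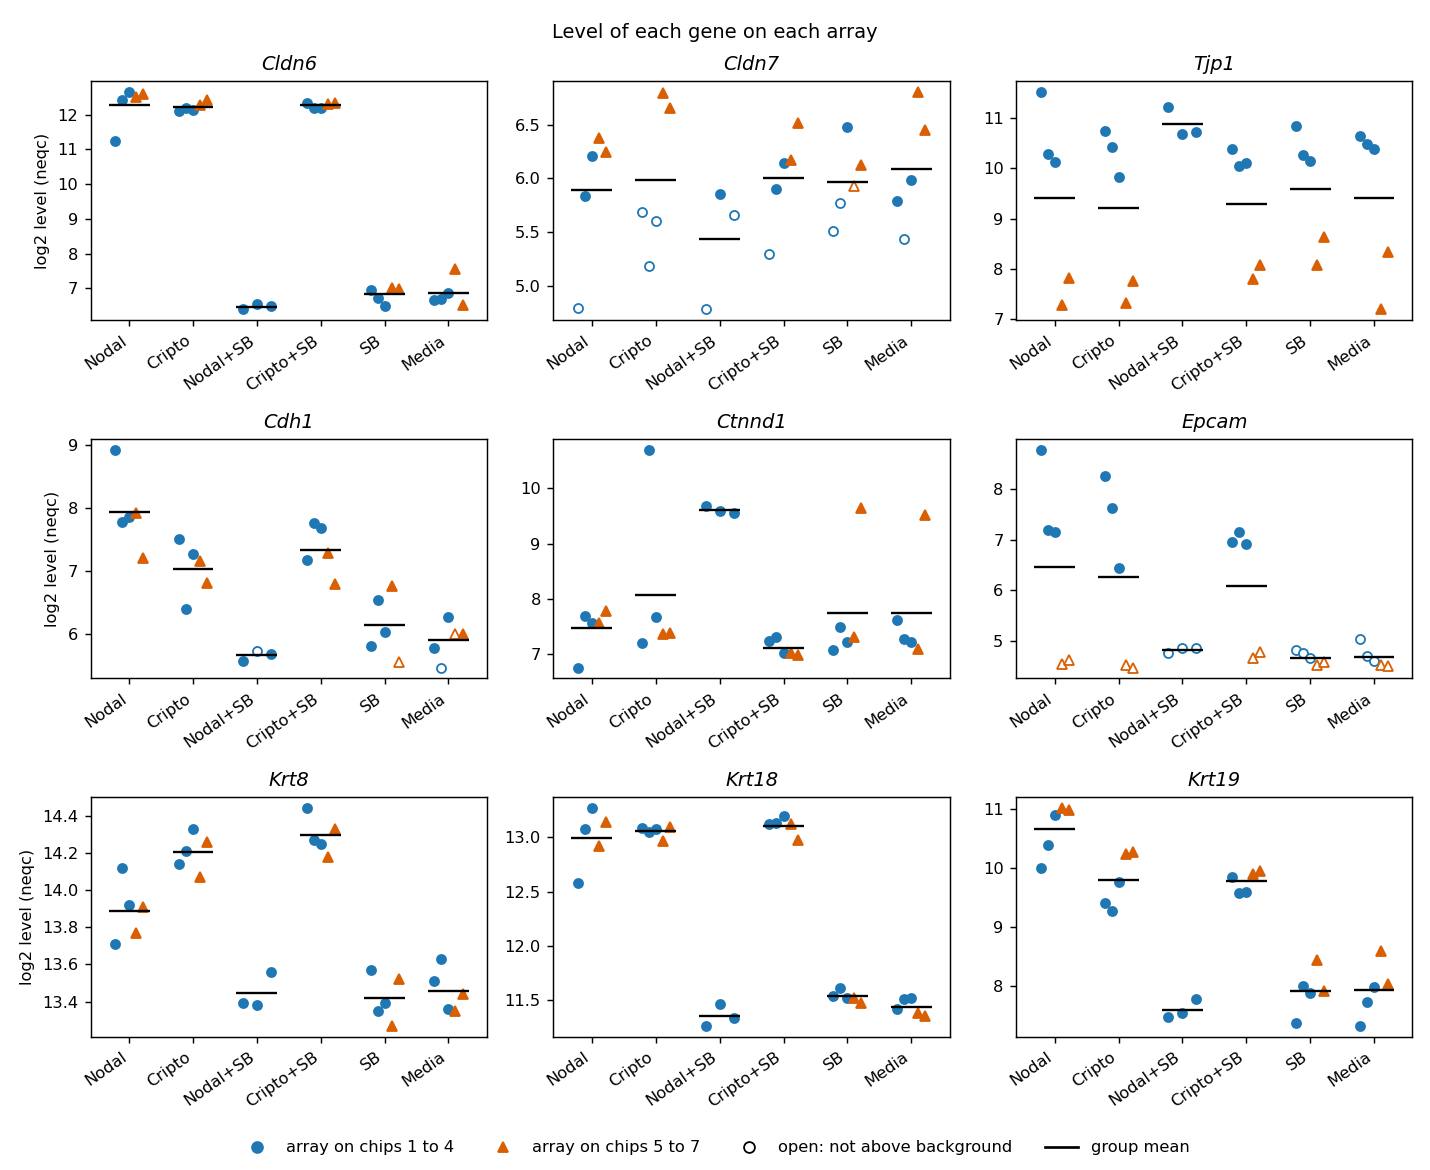
Log2 level (y axis) of each gene on each of the 28 arrays, by group (x axis; SB stands for SB431542). Circles are arrays on BeadChips 1 to 4 and triangles those on 5 to 7, open symbols are arrays on which the probe was not above background, and lines are group means. Cldn6, Krt18 and Krt19 separate Nodal, Cripto and Cripto with SB431542 from the other groups on every array.

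Cldn6, a claudin of embryonic epithelia, changed most (probe ILMN_2941790, detected on all 28 arrays). Its levels were 11.24, 12.41, 12.65, 12.51 and 12.60 under Nodal, 12.11, 12.20, 12.13, 12.26 and 12.42 under Cripto, and 6.67, 6.71, 6.87, 7.56 and 6.53 in Media. Under Nodal with SB431542 it was at 6.40, 6.54 and 6.49, under Cripto with SB431542 at 12.32, 12.18, 12.20, 12.29 and 12.33, and under SB431542 at 6.95, 6.72, 6.51, 7.01 and 6.98. The groups fell into a high set of 3 and a low set of 3 with no array between 7.56 and 11.24, and the Nodal array at 11.24 lay apart from the other 4 of its group. Within BeadChips, Nodal exceeded Media by 4.57 to 6.07 on 5 of 5 chips, and Cripto exceeded Media by 4.70 to 5.89 on 4 of 4. The change under Nodal was 5.42 ± 0.19 (SE, adjusted p = 2.28e-15), under Cripto it was 5.39 ± 0.19 (adjusted p = 3.05e-15), a fold of 42.0, and under Cripto with SB431542 against SB431542 it was 5.42 ± 0.20 (adjusted p = 4.65e-15).

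Cldn7, a claudin of many mature epithelia, was dim (ILMN_2595477), detected on 17 of 28 arrays. Its levels were 4.80, 5.84, 6.21, 6.37 and 6.24 under Nodal, 5.69, 5.19, 5.60, 6.79 and 6.66 under Cripto, and 5.79, 5.43, 5.98, 6.81 and 6.45 in Media. These groups overlapped throughout, and no comparison called Cldn7 in the main fit. Among the alternatives, limma called it in 1 of 41 for Cripto with SB431542 against SB431542 (adjusted p = 0.0491). It was also called in 1 of 40 for Nodal with SB431542 against Nodal (adjusted p = 0.0495). Its change was -0.20 under Nodal (95% confidence interval -0.64 to 0.24) and -0.12 under Cripto (-0.57 to 0.33), so a rise of the size seen for Cldn6 lies outside both intervals. The BeadChip accounted for 62.2% of its variance beyond the group and the group for 7.39% beyond the BeadChip.

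Tjp1, which encodes the junction scaffold ZO-1, was detected on every array (ILMN_2706587) and followed the BeadChip. On chips 1 to 4 its 18 levels lay between 9.82 and 11.51, with a median of 10.39, and on chips 5 to 7 its 10 levels lay between 7.20 and 8.64, with a median of 7.81. The 2 sets of chips did not overlap, whatever the treatment: Nodal arrays held 11.51, 10.28 and 10.13 on the first set and 7.28 and 7.82 on the second, and Media arrays 10.63, 10.47 and 10.37 on the first and 7.20 and 8.33 on the second. BeadChip held 85.0% of the variance beyond the group, and the group 1.84% beyond the BeadChip. Such a pattern was not unique to this probe, as 760 other probes (4.11% of those tested) correlated above 0.9 with it over the 28 arrays. With the BeadChip in the fit, the change was 0.00 under Nodal (-0.34 to 0.35) and -0.17 under Cripto (-0.53 to 0.18). Tjp1 was called only in Nodal with SB431542 against Cripto with SB431542, at 0.61 ± 0.21 (SE, adjusted p = 0.0136). That call was lost without Nodal with SB431542 replicate 3 (0.51, adjusted p = 0.0812), with the BeadChip as a random block (0.90, adjusted p = 0.155) and with 3 other settings.

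**Figure D3:**
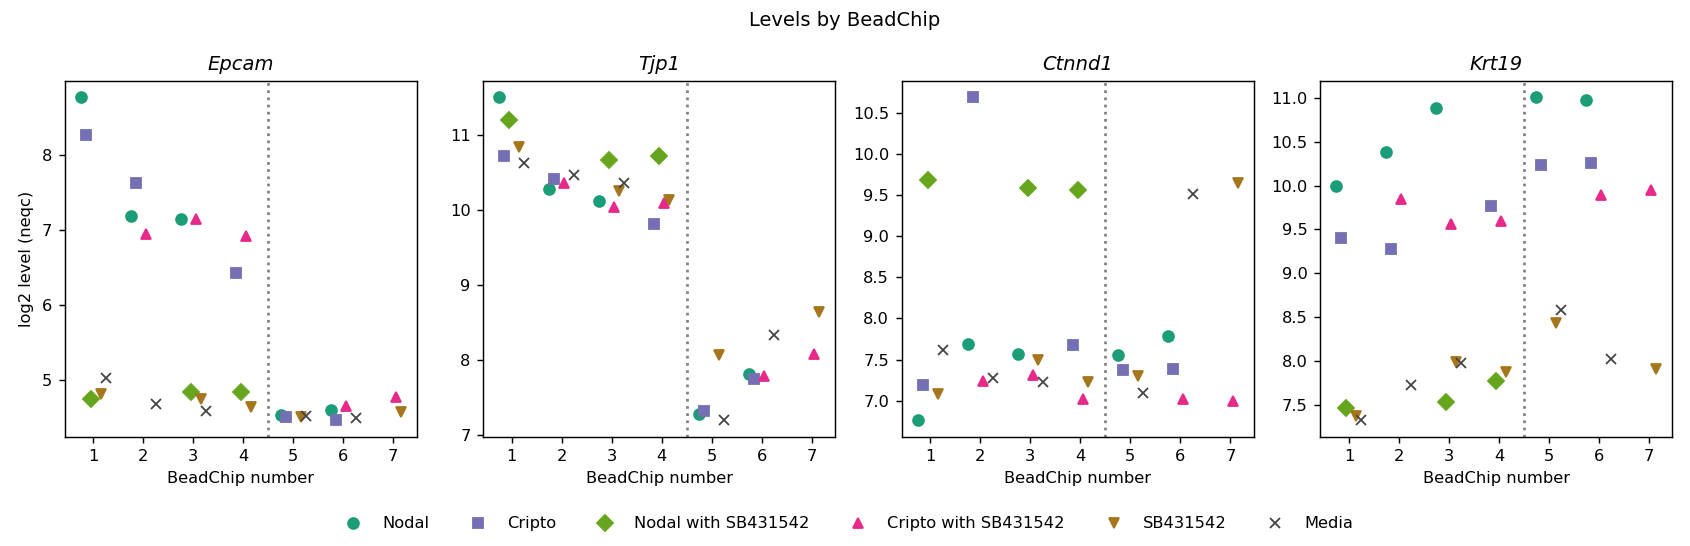
Log2 level (y axis) of Epcam, Tjp1, Ctnnd1 and Krt19 by BeadChip number (x axis), with a symbol for each treatment group and a dotted line between chips 4 and 5. Tjp1 drops across the line in every group present on both sides, Epcam lies at its low level on every array right of it, Ctnnd1 has 6 high arrays on 6 chips, and Krt19 keeps Nodal above Media on each chip that holds both.

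Cdh1, the E-cadherin gene, was read by 1 detected probe (ILMN_2628629), and a second probe was detected on no array. Its levels were 8.92, 7.77, 7.86, 7.92 and 7.21 under Nodal, 7.51, 6.40, 7.27, 7.16 and 6.80 under Cripto, and 5.77, 5.46, 6.26, 6.0 and 6.0 in Media, where it was detected on 3 of 5 arrays. All Nodal and all Cripto arrays lay above all Media arrays, and the Cripto array at 6.40 came closest to Media. Under SB431542 it was at 5.81, 6.54, 6.03, 6.76 and 5.56, against which the 5 arrays of Cripto with SB431542, at 7.17, 7.76, 7.68, 7.28 and 6.79, were higher without overlap, and the 3 arrays of Nodal with SB431542, at 5.57, 5.73 and 5.68, lay at the low end. Cdh1 rose by 2.04 ± 0.21 (SE, adjusted p = 7.81e-08) under Nodal, by 1.15 ± 0.22 (adjusted p = 0.000101) under Cripto and by 1.42 ± 0.22 (adjusted p = 1.19e-05) under Cripto with SB431542 against SB431542. Within chips, Nodal exceeded Media by 1.21 to 3.15 on 5 of 5 chips and Cripto exceeded Media by 0.80 to 1.74 on 4 of 4.

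Ctnnd1, the p120-catenin gene, was not called against Media for either protein. Only 1 of its 4 probes was detected (ILMN_2610460), on all 28 arrays. Its levels split into 6 arrays at 9.51 or above and 22 arrays between 6.76 and 7.78. All 3 arrays of Nodal with SB431542 were in the upper set, at 9.68, 9.59 and 9.56, and so were 1 of 5 Cripto arrays (10.69), 1 of 5 SB431542 arrays (9.65) and 1 of 5 Media arrays (9.51). No array of Nodal or of Cripto with SB431542 was. The 6 arrays came from 6 BeadChips and from 6 different positions on them, as the labels give them.

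Ctnnd1 was higher by 2.45 ± 0.60 (SE, adjusted p = 0.00184) under Nodal with SB431542 than under Nodal, and by 3.15 ± 0.60 (adjusted p = 0.000119) than under Cripto with SB431542. Against SB431542 alone the difference was 2.10 ± 0.58 (adjusted p = 0.0487), in a comparison where 3.65% of all probes were called (2.99% higher and 0.666% lower) and Ctnnd1 was the 1 gene of the 9. This last call held under 15 of 41 alternatives, with adjusted p between 0.00766 and 0.26, and leaving out any 1 array of Nodal with SB431542 ended it. Nodal and Media differed by -0.27 (95% confidence interval -1.28 to 0.73), and Cripto and Media by 0.35 (-0.68 to 1.39), intervals wide enough to hold changes of the size of Krt8's. What sets the 6 arrays apart was not tested.

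Epcam, which encodes an adhesion molecule of epithelial and embryonic stem cells, was detected on 9 arrays (ILMN_1240539), and all 9 were on chips 1 to 4. Its levels were 8.77, 7.19, 7.15, 4.54 and 4.61 under Nodal, 8.27, 7.63, 6.43, 4.52 and 4.47 under Cripto, and 5.03, 4.69, 4.60, 4.52 and 4.50 in Media. Cripto with SB431542 gave 6.95, 7.15, 6.92, 4.66 and 4.78, while Nodal with SB431542 gave 4.75, 4.85 and 4.85 and SB431542 gave 4.82, 4.75, 4.65, 4.52 and 4.58. In each of the 3 high groups the 3 arrays on chips 1 to 4 were well above every Media array and the 2 arrays on chips 5 to 7 were at the level of Media. Within chips, Nodal exceeded Media by 3.75, 2.50 and 2.56 on chips 1, 2 and 3, and by 0.02 and 0.12 on chips 5 and 6. Cripto exceeded Media by 3.24 and 2.93 on chips 1 and 2, and the differences on chips 5 and 6 were -0.01 and -0.03.

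Since Epcam was not above background on any array of Media, SB431542 or Nodal with SB431542, its fold is a lower bound, set against the lowest signal that counted as detected. It was at least 1.54-fold higher under Nodal (adjusted p = 0.00376) and at least 1.34-fold higher under Cripto (adjusted p = 0.00803) than in Media, and at least 1.18-fold higher under Cripto with SB431542 than under SB431542 (adjusted p = 0.0109). These means include the arrays of chips 5 to 7. The adjusted p-values belong to limma's fit of the measured values (log2 changes of 1.79, 1.61 and 1.57), and the bounds themselves were not tested. They also rest on a gene that passed the detection filter only through these 3 higher groups. A fit chosen after these values were seen tested whether the effect differed between chips 1 to 4 and chips 5 to 7. It called Epcam for Nodal (adjusted p = 0.0402, with 0.065% of all probes called) and for Cripto (adjusted p = 0.0307, with 0.13%), but the call remained under 1 of 4 alternatives for each protein, median centring. It was lost without background correction (adjusted p = 0.216 for Nodal and 0.153 for Cripto), on the authors' deposited values (0.317 and 0.213) and without the detection filter (0.0809 and 0.0695). The fitted difference ran from 0.82 to 3.08 for Nodal and from 0.77 to 3.09 for Cripto over these settings, and since Media was at background its size depends on the background correction. None of the other 8 genes was called for either protein in the fit with background correction. On chips 5 to 7 alone, where Epcam was detected on no array, it was called under neither Nodal (adjusted p = 0.691) nor Cripto (adjusted p = 0.915). What differed between the chip sets was not tested.

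Krt8, the type II keratin gene, was bright on every array (ILMN_1221157), and its second probe was detected on none. Its levels were 13.71, 14.12, 13.92, 13.77 and 13.91 under Nodal, 14.14, 14.21, 14.33, 14.07 and 14.26 under Cripto, and 13.51, 13.63, 13.36, 13.35 and 13.44 in Media. Every Nodal and Cripto array lay above every Media array, and the lowest Nodal array, at 13.71, was close to the highest Media array, at 13.63. It rose by 0.43 ± 0.08 (SE, adjusted p = 0.000237) under Nodal, a fold of 1.34, and by 0.72 ± 0.09 (adjusted p = 3.8e-07) under Cripto, a fold of 1.65. Under Cripto with SB431542 it was at 14.44, 14.27, 14.25, 14.18 and 14.33, all above the 13.57, 13.35, 13.39, 13.27 and 13.52 of SB431542.

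Krt18, the usual type I partner of Krt8, rose by more (ILMN_2711267). Its levels were 12.58, 13.08, 13.27, 12.92 and 13.14 under Nodal, 13.09, 13.05, 13.08, 12.97 and 13.10 under Cripto, and 11.41, 11.51, 11.52, 11.38 and 11.35 in Media. The groups were apart by more than 1 on the log2 scale, and the Cripto arrays lay between 12.97 and 13.10 while the Nodal arrays ran from 12.58 to 13.27. The change was 1.56 ± 0.09 (SE, adjusted p = 1.63e-11) under Nodal and 1.65 ± 0.10 (adjusted p = 8.42e-12) under Cripto, and within chips Nodal exceeded Media by 1.17 to 1.79 on 5 of 5 and Cripto exceeded Media by 1.54 to 1.76 on 4 of 4. Under Cripto with SB431542 its 5 levels ran from 12.98 to 13.20, and under SB431542 from 11.47 to 11.61, a change of 1.53 ± 0.10 (SE, adjusted p = 4e-11).

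Krt19, a type I keratin that can replace Krt18 as partner of Krt8, differed between the 2 proteins (ILMN_2614462). Its levels were 10.00, 10.38, 10.89, 11.01 and 10.98 under Nodal, 9.40, 9.27, 9.76, 10.24 and 10.26 under Cripto, and 7.32, 7.73, 7.98, 8.58 and 8.02 in Media. Nodal and Cripto arrays all lay above Media, and the Nodal and Cripto ranges overlapped only through the first Nodal array and the last 2 Cripto arrays. Krt19 rose by 2.73 ± 0.13 (SE, adjusted p = 3.61e-13) under Nodal and by 1.87 ± 0.13 (adjusted p = 1.76e-10) under Cripto. Within chips, Nodal exceeded Media by 2.42 to 2.96 on 5 of 5 chips and Cripto exceeded Media by 1.54 to 2.24 on 4 of 4. Under Cripto with SB431542 it was at 9.85, 9.56, 9.59, 9.89 and 9.95, against 7.37, 7.98, 7.87, 8.43 and 7.91 under SB431542, without overlap.

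Nodal and Cripto were also set against each other, a comparison in which 20.4% of all probes were called (10.2% in each direction). Of the 9 genes, Cdh1 and Krt19 were higher under Nodal and Krt8 was lower. Cdh1 was higher by 0.88 ± 0.22 (SE, adjusted p = 0.00596) and on 4 of 4 chips that held both groups, by 0.40 to 1.41. Krt19 was higher by 0.86 ± 0.13 (adjusted p = 0.000123) and on 4 of 4 chips, by 0.60 to 1.11. Krt8 differed by -0.30 ± 0.09 (adjusted p = 0.0178) and was lower on 4 of 4 chips. For Cldn6 the difference was 0.02 (95% confidence interval -0.37 to 0.42) and for Krt18 -0.08 (-0.28 to 0.12). Fitted on the arrays of these 2 groups alone, only Krt19 was called (0.80, adjusted p = 0.0467), with Cdh1 at 0.99 (adjusted p = 0.056) and Krt8 at -0.29 (adjusted p = 0.244), and without Cripto replicate 5 Krt8 had an adjusted p of 0.0579.

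SB431542 alone was not seen to change any of the 9 genes. In limma's fit 0 of the 9 were called against Media and 0 had an unadjusted p under 0.05, 606 of all probes had one, and 0% of all probes were called in any setting tried. The 95% confidence interval was -0.43 to 0.41 for Cldn6, -0.27 to 0.68 for Cdh1, -0.23 to 0.15 for Krt8, -0.08 to 0.34 for Krt18 and -0.30 to 0.28 for Krt19. It was -0.75 to 0.19 for Cldn7 and -0.18 to 0.57 for Tjp1. For Ctnnd1 (-1.01 to 1.16) and Epcam (-1.15 to 1.02) it was wide enough to hold a 2-fold change either way.

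With SB431542 added, Nodal-treated cells had lower levels of the 6 genes. In Nodal with SB431542 against Nodal, where 52.4% of all probes were called (27.6% lower and 24.8% higher), the same 6 genes fell and Ctnnd1 was higher. Cldn6 fell by 5.65 ± 0.23 (SE, adjusted p = 7.08e-14), Krt19 fell by 2.87 ± 0.16 (adjusted p = 8.85e-12) and Cdh1 fell by 2.48 ± 0.26 (adjusted p = 1.38e-07). Krt18 fell by 1.65 ± 0.12 (adjusted p = 3.54e-10) and Krt8 fell by 0.45 ± 0.10 (adjusted p = 0.0012). Epcam was at least 1.71-fold lower (adjusted p = 0.00305). Against SB431542 alone, Nodal with SB431542 left none of these 6 called, with intervals of -0.69 to 0.24 for Cldn6, -0.45 to 0.19 for Krt19, -0.20 to 0.23 for Krt8 and -0.45 to 0.02 for Krt18. Cdh1 stood at -0.65 (-1.17 to -0.12, adjusted p = 0.158) and was lower on 3 of 3 chips. Epcam, detected on no array of either group, had a wide interval of -1.67 to 0.76.

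With SB431542 added, Cripto-treated cells still had Cldn6, Cdh1, Krt8, Krt18 and Krt19 at high levels on every array. Epcam was detected on 3 of these 5 arrays and was not above background on chips 6 and 7, at 4.66 and 4.78. In Cripto with SB431542 against Cripto, where 7.89% of all probes were called (4.01% higher and 3.88% lower), limma called 0 of the 9 genes and 2 had an unadjusted p under 0.05. The difference was 0.01 (95% confidence interval -0.40 to 0.42) for Cldn6, 0.01 (-0.20 to 0.22) for Krt18, 0.05 (-0.14 to 0.24) for Krt8, -0.03 (-0.32 to 0.25) for Krt19 and 0.47 (0.01 to 0.94, adjusted p = 0.204) for Cdh1. For Epcam it was -0.11, with a wide interval of -1.18 to 0.97. For Ctnnd1, with Cdh1 the other of the 2, it was -1.33 (-2.40 to -0.25, adjusted p = 0.117). Without Cripto replicate 5 the 1 call was Ctnnd1, at -1.74 (adjusted p = 0.046). The effect of SB431542 in Nodal-treated cells minus that in Cripto-treated cells was tested directly, and 7 of the 9 genes were called where 46.7% of all probes were. It was -5.66 ± 0.30 (SE, adjusted p = 1.08e-11) for Cldn6, -2.84 ± 0.21 (adjusted p = 1.35e-09) for Krt19, -2.95 ± 0.34 (adjusted p = 7.78e-07) for Cdh1 and -1.66 ± 0.15 (adjusted p = 2.96e-08) for Krt18.

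The interaction of Nodal with SB431542, which takes the inhibitor's own effect in medium into account, called the same 7 genes with 42% of all probes (20.2% higher and 21.8% lower), Ctnnd1 upwards and the other 6 downwards. The interaction of Cripto with SB431542 called 0 of the 9, with 0 at an unadjusted p under 0.05, and 0.541% of all probes. Between the 2 proteins under the inhibitor, where 63.6% of all probes were called (30.1% higher and 33.5% lower), Nodal with SB431542 was lower than Cripto with SB431542 for the 6 genes and higher for Ctnnd1 and Tjp1. A test for any difference among the 6 groups called 7 of the 9 genes, all but Cldn7 (adjusted p = 0.445) and Tjp1 (adjusted p = 0.0644), with 78.3% of all probes.

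Over the 28 arrays, the genes correlated as follows, as a description of arrays that share their treatments. BeadChip effects, fitted together with the treatment groups, were subtracted first, which keeps the differences between groups. Cldn6 and Krt18 had a Pearson correlation of 1.0, Cldn6 and Krt19 0.96, Krt8 and Krt18 0.94, Cdh1 and Krt19 0.92, and Cdh1 and Epcam 0.85. Tjp1 ran the other way from Cldn6, at -0.56, and Cdh1 and Ctnnd1 were at -0.52. The first Nodal array had the lowest Cldn6, Krt18, Krt19 and Ctnnd1 of its group and the highest Cdh1, Epcam and Tjp1. By the same measure the genes outside the 9 whose pattern was most like that of Cldn6 were Rnf130 (0.996), Ddc, Cemip2 and Upp1 (0.995 each) and Gpc3 (0.993). For Cdh1 they were Tmem44 (0.969), Fhdc1 (0.965), Fbln1 (0.964), Spint2 and Birc7 (0.957 each), and for Krt19 Ctsh (0.99), Chst1 (0.986), Flt1 (0.985), Cyp26a1 (0.984) and Cpm (0.982). For Tjp1 the closest were lower, with Plekha3 at 0.869, Resf1 at 0.864, Gzf1 at 0.856, Sarnp at 0.849 and Gmcl1 at 0.835.

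Other genes of the same structures moved in both directions. Of all probes tested, 28.5% were called higher and 27% lower under Nodal, and 32.4% higher and 29.9% lower under Cripto. The counts in this and the following lists stand beside those shares, and a count near them is nothing particular to its list. Of 28 other tight junction genes 13 were measured, of which 6 rose and 3 fell under Nodal and 7 rose and 4 fell under Cripto, with medians of 0.30 and 0.42. Patj, a scaffold of the Crumbs polarity complex, was at least 3.67-fold higher under Nodal and at least 3.40-fold higher under Cripto, from no detected Media array. F11r, which encodes the junctional molecule JAM-A, rose by 1.26 ± 0.11 (SE) under Nodal and by 1.17 ± 0.11 under Cripto, and Tjp3, the ZO-3 gene, was at least 1.29-fold and at least 1.49-fold higher. Magi1, a junction scaffold, fell by 2.36 ± 0.12 under Nodal and fell by 2.46 ± 0.13 under Cripto, and Jam2, another junctional adhesion molecule gene, fell by 1.5 ± 0.23 and fell by 1.20 ± 0.23, with detection on 1 of 5 Nodal, 2 of 5 Cripto and 4 of 5 Media arrays, and with median centring it was at -1.16 and -0.75.

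Of 16 other adherens junction genes 11 were measured, and 6 fell and 1 rose under Nodal, while 7 fell and 0 rose under Cripto. This balance depended on the scaling: with median-centred arrays 2 fell and 4 rose under Nodal and 3 fell and 3 rose under Cripto, against 6 fell and 1 rose and 8 fell and 0 rose on the authors' deposited values. Of the called genes of all 6 lists, Afdn changed sign under both proteins with median centring, Cgnl1 under Nodal and Elf3 under Cripto, and none did on the deposited values. Cdh5, which encodes VE-cadherin, a cadherin best known from endothelium, fell by 2.99 ± 0.11 (SE) under Nodal and fell by 3.11 ± 0.11 under Cripto, with adjusted p of 8.51e-15 and 5.88e-15. Its mean level was 8.35 ± 0.19 (SD, n = 5) under Nodal and 8.21 ± 0.15 under Cripto, against 11.34 ± 0.13 in Media, and Nodal with SB431542 was at 11.45 ± 0.08 (n = 3). Ctnna2, the neural alpha-catenin gene, was at least 1.93-fold lower under Nodal and at least 1.82-fold lower under Cripto. Limma also called Ctnnd2 lower, at -0.88 under Nodal (adjusted p = 0.0328) and -1.47 under Cripto (adjusted p = 0.00107). With median centring it was at -0.66 (adjusted p = 0.0567) and -1.22 (adjusted p = 0.0012). Nectin3, an immunoglobulin-like adhesion molecule gene, fell by 0.96 ± 0.16 and fell by 0.91 ± 0.16, calls that were lost with median centring (-0.39, adjusted p = 0.145, and -0.35, adjusted p = 0.203). It was the 1 gene of the list called under Nodal with SB431542 against SB431542, at 0.79 ± 0.19 (adjusted p = 0.0273). The gene of the beta-catenin inhibitor ICAT, Ctnnbip1, rose by 0.57 ± 0.15 under Nodal, or by 1.14 with median centring.

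Desmosomes anchor keratin filaments, and all 3 measured genes of 11 listed rose under both proteins. Of all probes, 28.5% were called higher under Nodal and 32.4% under Cripto. Dsg2, a desmosomal cadherin gene detected on no array of Media, SB431542 or Nodal with SB431542, was at least 7.55-fold higher under Nodal, at least 5.54-fold higher under Cripto and at least 4.82-fold higher under Cripto with SB431542 than under SB431542. It passed the detection filter only through groups where it was high, so its place in this count was set by the filter. The same holds for Patj, Tjp3, Jam3, Krt7, Krt14, Grhl1, Spint1 and Spint2 in the other lists. Ctnna2 is the reverse case, detected on no Nodal or Cripto array, so its place among the falls was set by the filter. Pkp2 rose by 0.55 ± 0.14 (SE) under Nodal and by 0.43 ± 0.14 under Cripto, and Pkp4 rose by 0.37 ± 0.14 and 0.43 ± 0.15. With median centring these were 1.15 and 1.06 for Pkp2 and 0.98 and 1.07 for Pkp4. Of 9 other keratin genes 4 were measured, of which 0 rose and 2 fell under Nodal and 2 rose and 2 fell under Cripto. Krt23 fell by 1.22 ± 0.13 under Nodal and fell by 1.46 ± 0.13 under Cripto (-0.70 and -0.93 with median centring), and Krt10 fell by 0.81 ± 0.21 and fell by 0.63 ± 0.21, which became -0.26 (adjusted p = 0.274) and -0.04 (adjusted p = 0.868) with median centring. Krt7, a type II keratin of simple epithelia, was at least 1.82-fold higher under Cripto (adjusted p = 5.18e-07), and under Nodal it was detected on 3 of 5 arrays and not called (adjusted p = 0.0813), with no Media array above background. Krt14 was called by limma under Cripto (adjusted p = 0.0367), detected on 2 of 5 Cripto arrays and no Media array. No lower bound on its rise could be set.

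Of 17 epithelial regulators and partners 11 were measured, of which 4 rose and 2 fell under Nodal and 5 rose and 4 fell under Cripto. With median centring 8 rose and 1 fell under Nodal and 6 rose and 2 fell under Cripto. Spint1 and Spint2 encode membrane-bound inhibitors of serine proteases at epithelial surfaces. Spint1 was at least 21.6-fold higher under Nodal and at least 15.7-fold higher under Cripto, and Spint2 at least 2.28-fold and at least 1.57-fold higher. Lsr, whose protein sits at tricellular junctions, rose by 1.14 ± 0.13 (SE) under Nodal and by 1.09 ± 0.13 under Cripto, and the transcription factor gene Klf4 fell by 1.15 ± 0.10 and fell by 1.51 ± 0.10. With median centring Lsr stood at 1.71 and 1.68 and Klf4 at -0.58 and -0.92, all called. Rab25, a gene of a small GTPase of epithelial membrane traffic, fell by 0.63 ± 0.18 under Nodal and fell by 0.85 ± 0.19 under Cripto, with detection on 1 of 5 Nodal, 1 of 5 Cripto and 2 of 5 Media arrays, and with median centring its call under Nodal was lost (-0.40, adjusted p = 0.055). Elf3, an epithelial transcription factor gene, fell by 0.59 ± 0.12 under Cripto, the change that turned sign with median centring.

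Of 8 genes of E-cadherin repressors and mesenchymal proteins, 5 were measured. Zeb1 and Snai1, repressors of Cdh1 transcription, were among the 3 that fell under Nodal and among the 3 that fell under Cripto. Zeb1 had a mean level of 8.87 ± 0.63 (SD, n = 5) under Nodal and 8.81 ± 0.27 under Cripto, against 10.25 ± 0.31 in Media, changes of -1.38 ± 0.18 (SE) and -1.43 ± 0.18. Snai1 fell by 0.89 ± 0.14 and fell by 1.11 ± 0.14, and Fn1, the fibronectin gene, fell by 1.35 ± 0.21 and fell by 1.70 ± 0.22. With median centring Snai1 lost its call under Nodal (-0.30, adjusted p = 0.0815) and stood at -0.52 under Cripto, while Zeb1 was at -0.76 and -0.82 and Fn1 at -0.72 and -1.07, all still called. Vim, the vimentin gene, rose by 0.35 ± 0.09 under Cripto, and with median centring it was called under Nodal too, at 0.40 (adjusted p = 0.0231). Under Nodal with SB431542 none of the 5 was called against SB431542, and Zeb1 was at 10.57 ± 0.09 (SD, n = 3), against 10.30 ± 0.32 (SD, n = 5) under SB431542. SB431542 alone called no gene of the 6 lists against Media.

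**Figure D4:**
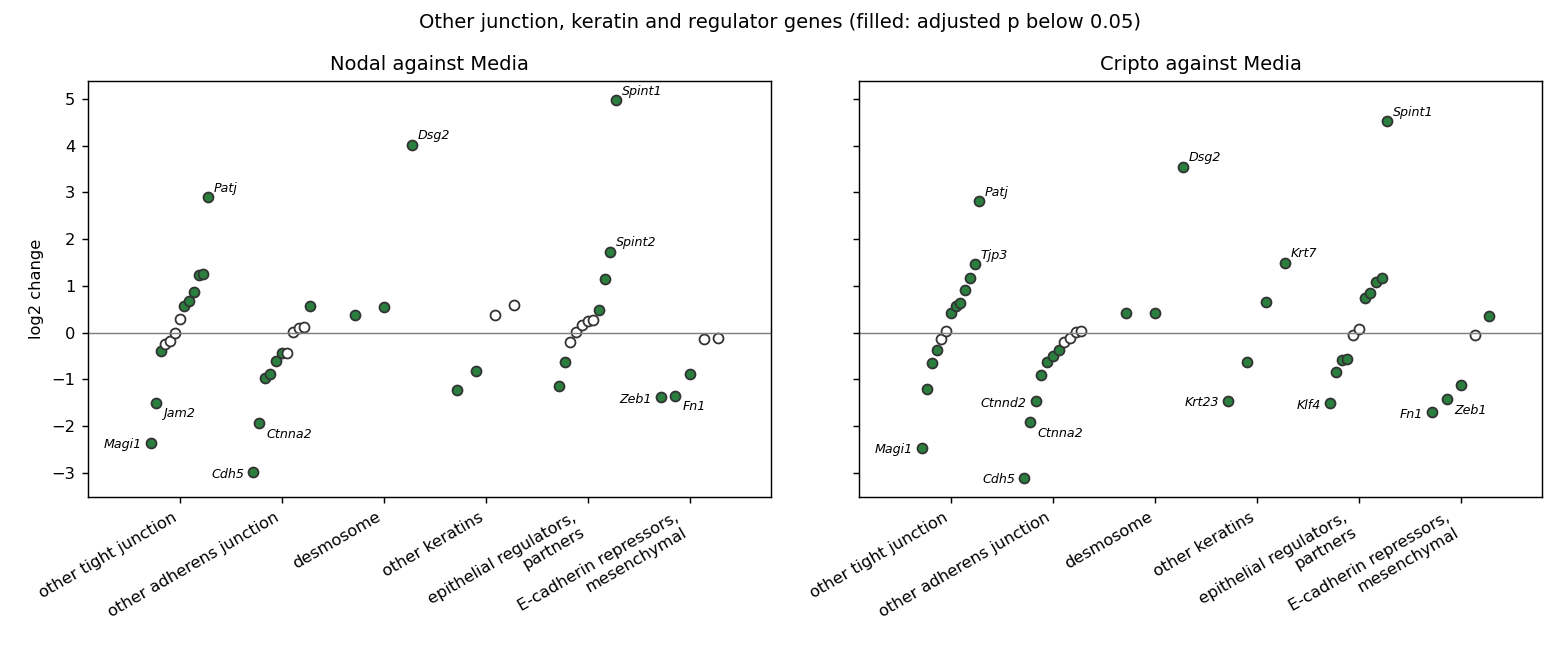
Fitted log2 change (y axis) of each measured gene of 6 lists (x axis) under Nodal and under Cripto against Media, with filled points for an adjusted p below 0.05 and names for called changes of larger size. Spint1, Dsg2 and Patj lie highest and Cdh5 and Magi1 lowest in both panels; for genes not above background in Media the plotted change depends on the background correction, and the text gives a bound.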

How the data were processed

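The authors deposited, per the file headers, 1 file per array with the bead-averaged signal, a linear intensity, and, for 45281 probes, detection p-values and bead counts. The authors also deposited a table of processed values that behave as log2 intensities, whose transformation is not given in the sources used here. BeadStudio and lumi are named, without versions, per the submitters' processing notes.

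The software was limma (version 3.58.1) in R (version 4.3.3), with files read by data.table, version 1.17.8. The neqc procedure estimated each array's background from the detection p-values, added an offset of 16, quantile-normalised all arrays and took log2, so that a shift of most genes 1 way is not seen. Testing covered the 18471 probes with detection p under 0.01 on 3 or more arrays. The annotation gave 34885 probes 1 symbol, 18 several and 10378 none, and a gene outside the 9 was represented by its brightest probe. Group and BeadChip were fixed terms in 1 linear model with eBayes moderation (16 residual and 4.29 prior degrees of freedom), fitted to all arrays. Tests were two-sided, and p-values were adjusted by the Benjamini-Hochberg method over all 18471 probes in each of 12 contrasts. The fit was tried on simulated data with independent noise and few changed probes. These data differ, since most probes were called in several comparisons, so that trial does not give the error rate here. For a probe detected on no array of 1 group, a lower bound replaces the fold: the brighter group's mean against, per array, the higher of the lowest detected signal and the probe's own. An adjusted p printed beside such a bound is that of the fit to the measured values, and no test was run on the bound. The number of arrays limits the precision, and beads averaged 31 to 51.5 per tested probe of the 9 genes (medians over arrays). Genes were named by rule: all 9 genes, and the 5 genes most like each of Cldn6, Cdh1, Krt19 and Tjp1. In each of 6 context lists (89 genes) up to 3 called genes with the largest rise and fall under each protein were named. Some marker genes and genes affected by detection or scaling were named besides. The members, lists and rules were chosen with earlier results of these data known. Alternatives changed the background correction, offset, normalisation, detection filter, BeadChip term, chips used, moderation, arrays in the fit and 1 array at a time. Figures were drawn with matplotlib 3.10.9 in Python 3.11.15.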

Additional observations from a re-analysis of the deposited data

Results flagged for a closer look

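Single arrays that stood apart from their own group were Cldn6 in the first Nodal array, at 11.24 where the other 4 lay between 12.41 and 12.65, and 4 arrays for Ctnnd1. Ctnnd1 was at 6.76 in the first Nodal array (others 7.56 to 7.78), at 10.69 in the second Cripto array (others 7.20 to 7.68), at 9.65 in the fifth SB431542 array (others 7.09 to 7.50) and at 9.51 in the fifth Media array (others 7.10 to 7.61). By Dixon's criterion, chance marks about 1 in 20 groups, and 45 groups were examined.

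The effect of SB431542 in Nodal-treated cells minus that in Cripto-treated cells differed from 0 for 7 genes. On the log2 scale it was -5.66 for Cldn6, -2.95 for Cdh1, 3.78 for Ctnnd1, -0.50 for Krt8, -1.66 for Krt18 and -2.84 for Krt19. For Epcam the fitted value was -2.20, but Epcam was detected on no array of Nodal with SB431542, so the size depends on the background correction. It ran from -2.67 to -0.58 over 40 alternatives, and the call remained in 31. The effect of the proteins on Epcam was called different between chips 1 to 4 and chips 5 to 7, by a fitted 2.87 for Nodal and 2.76 for Cripto, with Media at background. That call remained under 1 of 4 alternatives for each protein (0.82 to 3.08 and 0.77 to 3.09). The part of the BeadChip in the single-array values was not tested.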

How the results depend on the processing

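Cldn6, Krt18, Krt19, Krt8 and Cdh1 kept their direction and their calls against Media for both proteins under every alternative in which they were tested. Epcam in Cripto against Media reversed to -0.02 (adjusted p = 0.915) on chips 5 to 7 only. Epcam lost its call without the BeadChip term (Nodal 1.79, adjusted p = 0.0501; Cripto 1.59, adjusted p = 0.0709). In Nodal with SB431542 against SB431542, 1 of the 9 genes was called, and 0 with the authors' deposited values, median centring, no detection filter, no BeadChip term, trend and robust moderation, or brightness as a covariate. That number was 2 with only the groups of the comparison and 0 to 1 with 1 array left out. In Nodal against Cripto it was 3, and 0 on chips 5 to 7 only, 1 with only those groups, and 2 to 3 with 1 array left out. In Cripto with SB431542 against Cripto it was 0, and 0 to 1 with 1 array left out. With detection required on all 28 arrays, 4 genes were called under each protein, since Cdh1, Epcam and Cldn7 then leave the test. Over all probes, Nodal against Media called 10242, with 6634 then, 5727 with 1 probe per gene and 6606 with brightness as a covariate. Over all alternatives, arrays left out included, Nodal with SB431542 against SB431542 called 675 probes (0 to 2419), Cripto against Media 11507 (6421 to 12045), Cripto with SB431542 against SB431542 11794 (6521 to 12371), Nodal with SB431542 against Nodal 9673 (2558 to 10524), Cripto with SB431542 against Cripto 1458 (51 to 2409), Nodal against Cripto 3768 (503 to 4459) and Nodal with SB431542 against Cripto with SB431542 11755 (6396 to 12388). The interactions called 7755 (4365 to 9027) for Nodal and 100 (0 to 472) for Cripto, the inhibitor effect in Nodal against in Cripto 8625 (4750 to 9416), and the test among the 6 groups 14459 (8009 to 15171). The scaling of the context lists was examined after seeing the data. No paired analysis was possible by replicate number because the labels give none, and the BeadChip, which the labels give, was the block. Signal over background limits Cldn7, Epcam and Cdh1 most. Nodal with SB431542 rests on 3 arrays, on chips 1, 3 and 4.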
